A study of Drosophila melanogaster with 2 samples.

Results

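Aminoacyl-tRNA synthetases are the enzymes that join each amino acid to its transfer RNA, and the genes encoding them were examined here for binding of Trachealess (Trh). Members were the protein-coding genes whose symbol is a three-letter amino acid code, or GluPro, followed by RS, with or without the ending -m. The dm6 annotation gave 33 such genes among 13945 protein-coding genes, 18 without the ending (called cytosolic here) and 15 with it (mitochondrial). The rule reads symbols alone and no measured value, although the family was taken up with earlier results of these data known. The 33 genes lay on 2L (6 genes), the right arm of chromosome 2 (8), 3L (10), 3R (6) and X (3).

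Trh, which belongs to the bHLH-PAS proteins, pairs with Tango on DNA and sets up the tracheal cells of the fly. ChIP-seq was carried out with an antibody against GFP on whole Drosophila melanogaster embryos of both sexes, collected from 0 to 24 h of development, from a transgenic line in which GFP is fused to the C terminus of Trh. There was 1 group with 2 biological replicates, numbered 1 and 3, both called against the same control alignment, and no second genotype, stage or treatment. Cells of all kinds were pooled in each sample, so the cells in which a site was bound cannot be told apart.

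Cells make proteins at cytosolic ribosomes and, separately, inside mitochondria, and each system needs its own supply of charged transfer RNAs. Both sets of synthetases are encoded in the nucleus, and the mitochondrial enzymes are imported after translation. GluProRS is a fused enzyme that charges the transfer RNAs of glutamate and proline, and some synthetase genes without the ending can also supply the mitochondria, as the human gene for glycyl-tRNA synthetase does. Synthetase genes are active in nearly all cells, and their transcription is raised by the factor ATF4 (crc in the fly) when amino acids run short.

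Some synthetase peaks past the authors' reproducibility threshold, at AsnRS, GluProRS, IleRS and ThrRS, lay between the exons of the member and of the gene next to it. Others, such as those near AlaRS and LeuRS-m, lay elsewhere. Sequences from 6 places are shown because the rest of the account turns on their place. All are dm6, plus strand, from the release 6 genome. In the first 5, which are 101 bases long, the capitals mark the 5 bases centred on the summit of such a peak. These are the peak beyond the 3′ end of AlaRS (chr2L:8376830-8376930), the peaks upstream of IleRS (chr3L:22288361-22288461), ThrRS (chr2L:12103556-12103656) and AsnRS (chr2L:19131964-19132064), and the peak upstream of LeuRS-m (chr3L:4824876-4824976). The last is the whole of the 259 bases between the annotated exons of GluProRS and AP-1sigma (chr3R:23958392-23958650), which holds 2 summits, and its capitals mark CACGT, the reverse complement of the core ACGTG that Trh and Tango bind.
AlaRS: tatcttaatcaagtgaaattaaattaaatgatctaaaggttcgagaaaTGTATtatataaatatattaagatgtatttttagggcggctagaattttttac
IleRS: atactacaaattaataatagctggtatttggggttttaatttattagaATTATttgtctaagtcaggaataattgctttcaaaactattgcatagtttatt
ThrRS: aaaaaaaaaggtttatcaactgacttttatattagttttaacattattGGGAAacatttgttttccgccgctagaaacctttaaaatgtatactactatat
AsnRS: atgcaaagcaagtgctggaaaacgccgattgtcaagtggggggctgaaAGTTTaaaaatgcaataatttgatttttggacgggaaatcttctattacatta
LeuRS-m: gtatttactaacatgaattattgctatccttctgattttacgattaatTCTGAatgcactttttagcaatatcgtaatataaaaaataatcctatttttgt
GluProRS: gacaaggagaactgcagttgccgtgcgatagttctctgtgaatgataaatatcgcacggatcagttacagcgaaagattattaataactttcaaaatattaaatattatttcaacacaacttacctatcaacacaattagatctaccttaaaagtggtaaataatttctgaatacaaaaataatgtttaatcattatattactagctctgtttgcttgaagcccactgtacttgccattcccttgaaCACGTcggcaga

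These windows were rich in A and T. Over the 8 peaks at a member's own transcription start site (TSS), the GC content of the 101 bases around the summit had a median of 29.7% and ran from 23.8% to 48.5%. The median was 32.7% over all 2322 peaks past the threshold and 31.7% over those at protein-coding promoters.

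The authors deposited peak lists and no read counts, so the depth behind each peak is unknown and no interval can be given for it. Peaks past IDR (the irreproducible discovery rate, a measure of how well replicates rank the same peaks) numbered 2322, with signal values of 74.4 to 1016 and a median of 110.1. The signal value is a score from the authors' peak caller and is compared here only within a list. The pooled list held 21025 peaks, those past IDR included, and the lists of replicates 1 and 3 held 28743 and 30000. Ranks below count from the highest signal of each list.

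Cytosolic synthetase genes held a peak past IDR more often than mitochondrial ones. A summit lay in the gene's span or within 2000 bp of it for 9 of 18 cytosolic genes (50%) and 3 of 15 mitochondrial genes (20%), together 12 of 33 (36.4%), against 22.4% of all protein-coding genes. At the gene's own TSS, within 500 bp of the start of any of its transcripts, a summit past IDR was present for 7 of 18 cytosolic genes (38.9%) and 0 of 15 mitochondrial genes, against 11.8% of all protein-coding genes. With these settings the mitochondrial share in the span was near that of all genes and the cytosolic share above it. This moved with the setting. Within 500 bp of the span the shares were 38.9% (cytosolic) and 0% (mitochondrial), against 16.4% of all genes. With the peaks above the median signal alone they were 22.2% and 20%, against 12.9%, and by the strongest peaks of single replicates 38.9% and 33.3%, against 22.7% (replicate 1) and 21.5% (replicate 3). The difference between the compartments was not tested, since genes are not replicates of a condition. Members had longer median spans than all genes, with 3090 bp (cytosolic) and 2727 bp (mitochondrial) against 2166 bp. Over all genes, the median span was 3343 bp with a peak past IDR and 1962 bp without one. It was 3503 bp and 2522 bp over cytosolic members with and without a peak, while mitochondrial members ran the other way, with 2167 bp and 2916.5 bp. The part of gene length in these shares was not tested.

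**Figure D1:**
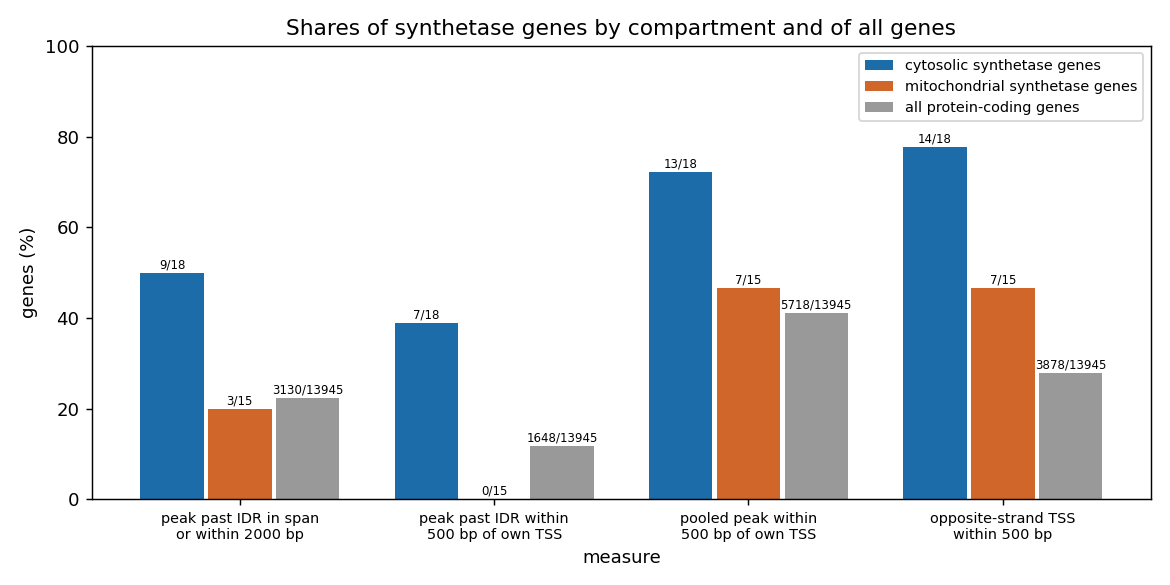
Share of genes (%) with a peak past IDR in the span or within 2000 bp, with one within 500 bp of an own TSS, with any pooled peak within 500 bp of an own TSS, and with an opposite-strand TSS within 500 bp, for cytosolic synthetase genes (blue), mitochondrial synthetase genes (orange) and all protein-coding genes (grey). The numbers above the bars are genes over all genes of the class, and the cytosolic bar is the highest in each measure, with 7 of 18 against 0 of 15 for peaks past IDR at the own TSS.

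The strongest peak at a member's own TSS belonged to IleRS, which charges isoleucine transfer RNA (FBgn0027086, 3L, 22288665 to 22292810, plus strand). Its summit at 22288411 had a signal of 203.7 and rank 296 in the pool, and lay 254 bp upstream of the TSS. In replicate 3 the summit was at the same base, with a signal of 75.4 and rank 361. Replicate 1 had no summit within 100 bp of it, but one at 22288526, 139 bp upstream of the TSS, with a signal of 136.7 and rank 226. Both replicates thus held a strong peak between IleRS and its neighbour, at different bases. That neighbour is Hem, a subunit of the WAVE complex that drives actin assembly, which is transcribed the other way from a TSS 470 bp from that of IleRS. The summit was 216 bp from the Hem TSS and so nearer to Hem than to IleRS. A weaker pooled summit, below the threshold, stood closer to IleRS at 54 bp upstream, with a signal of 55.5 and rank 3817.

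GluProRS (FBgn0005674, 3R, 23952136 to 23958391, minus strand) held 2 peaks past IDR, more than any other member. The stronger summit, at 23958450, was 59 bp upstream of its TSS, with a pooled signal of 157.7 and rank 524. Its signal was 98.5 in replicate 1 (rank 523) and 66.9 in replicate 3 (rank 477), so its rank was much the same in each. The weaker summit, at 23958649, had a signal of 89.5 and rank 1667 and was 258 bp upstream of GluProRS. It stood 2 bp from the TSS of AP-1sigma, a subunit of an adaptor complex for vesicle traffic. Replicate 1 had it with a signal of 53.3 and rank 1848, while replicate 3 had no summit within 100 bp. The core ACGTG was found 8 bp from this weaker summit, at 23958639 to 23958643 on the minus strand.

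SerRS, ThrRS and AsnRS, which charge the transfer RNAs of serine, threonine and asparagine, had summits past IDR on 2L close upstream of their starts. The SerRS summit (FBgn0031497, 3035493 to 3037403, minus strand; summit 3037423) was the nearest to its TSS of all, 20 bp upstream, and had a pooled signal of 131.4 (rank 794). Its signal was 84.8 in replicate 1 (rank 709) and 43.1 in replicate 3 (rank 1173). The TSSs of SerRS and of CG17260 on the other strand are 8 bp apart, and the summit lay 12 bp inside the 5′ UTR of CG17260. The ThrRS summit (FBgn0027081, 12103751 to 12107170, plus strand; summit 12103606) was 145 bp upstream, with a pooled signal of 105.0 (rank 1267). ThrRS ranked higher in replicate 3 (signal 61.7, rank 564) than in replicate 1 (signal 42.9, rank 2706), and its divergent neighbour is Patsas, with a TSS 466 bp away. The AsnRS summit (FBgn0086443, 19129469 to 19131954, minus strand; summit 19132014) was 60 bp upstream, with a pooled signal of 99.3 (rank 1407). AsnRS showed the opposite order, with a signal of 71.1 in replicate 1 (rank 1039) and 27.0 in replicate 3 (rank 2909). Its neighbour DCTN6-p27, a dynactin subunit, starts 369 bp away.

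The AspRS and ValRS genes, for the aspartate and valine enzymes, are both on the plus strand of 2R. The AspRS summit (FBgn0002069, 12877004 to 12883168; summit 12880140) lay in an intron, 144 bp upstream of an internal TSS of the gene at 12880284, and had a pooled signal of 99.6 (rank 1400). Its signal was 51.5 in replicate 1 (rank 1950) and 42.4 in replicate 3 (rank 1216). The nearer start was that of Nmda1, 90 bp away on the other strand, and the 5′ end of AspRS itself, 38 bp from that of Lfg, had no pooled peak within 500 bp. The ValRS summit (FBgn0027079, 13198850 to 13202709; summit 13198383) was the farthest upstream of the own-TSS peaks, at 467 bp, and was 46 bp from the TSS of the histone demethylase gene Kdm4B. It had a pooled signal of 80.3 (rank 2042), with 38.8 in replicate 1 (rank 3265) and 44.5 in replicate 3 (rank 1095), and was the weakest of the own-TSS peaks past IDR. The replicate 3 summit, 46 bp from the pooled one, was more than 500 bp from the ValRS TSS. In replicate 3 it was thus not an own-TSS peak.

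The 7 genes with such a peak thus held 8 summits, all upstream of the TSS by 20 to 467 bp. Their pooled signals ran from 80.3 to 203.7 with a median of 102.3, and 3 of the 8 exceeded the median of 110.1 over all peaks past IDR. For 3 of the 8, those of AsnRS, ThrRS and the stronger one of GluProRS, the nearest protein-coding TSS was the member's own.

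**Figure D2:**
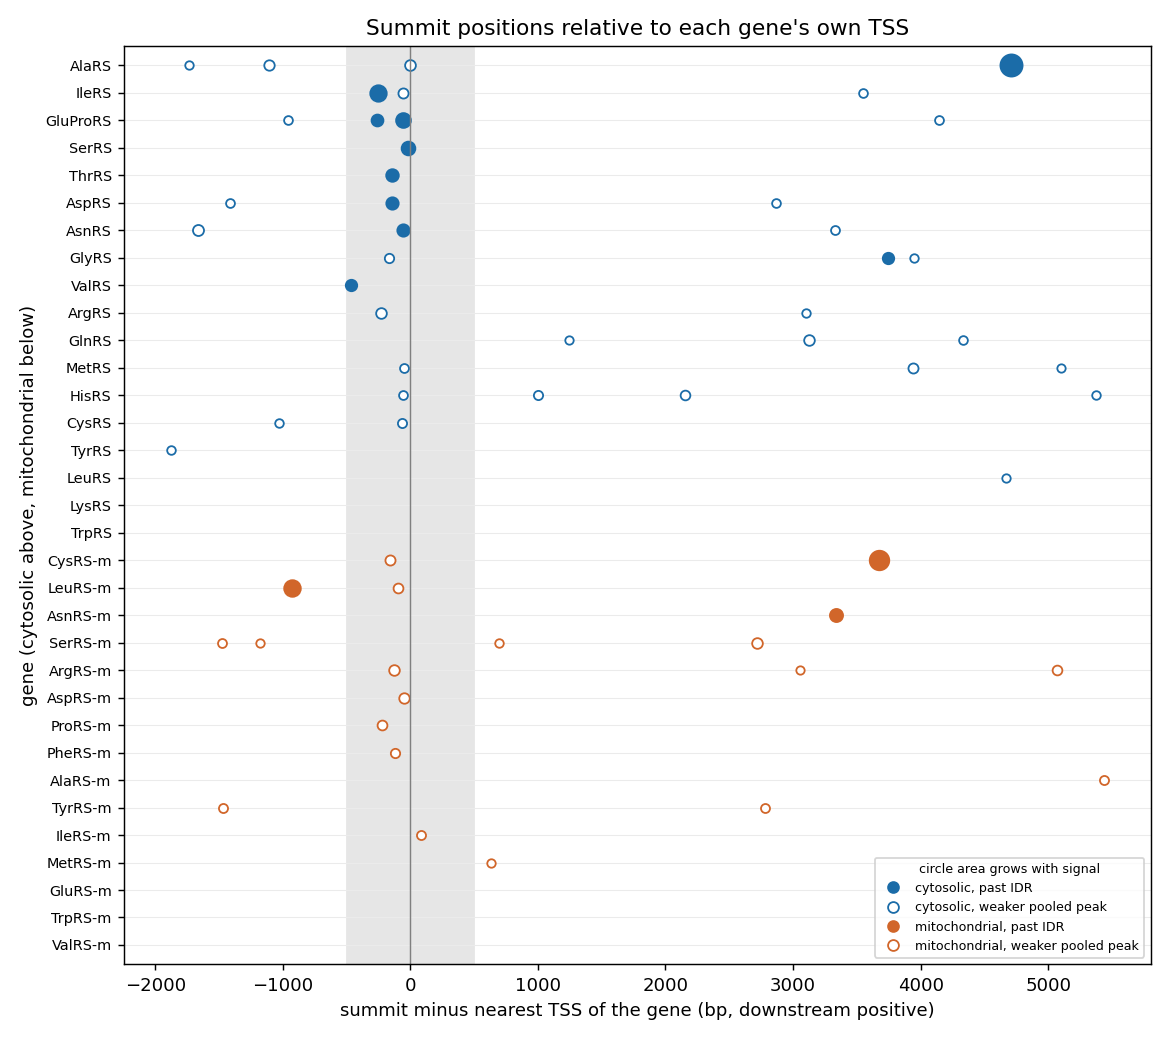
Position of every pooled summit in or within 2000 bp of each of the 33 genes, in bp from the nearest TSS of that gene, with upstream to the left. Filled circles are past IDR, open circles are weaker, the area grows with the signal value and the grey band marks 500 bp on each side. The 8 filled circles in the band are all blue (cytosolic) and all left of 0, while the 3 filled orange circles (mitochondrial) are outside it.

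The other 5 member peaks past IDR were nearest to the TSS of another gene, and 3 of them, near AlaRS, CysRS-m and LeuRS-m, had higher signals than any own-TSS peak. AlaRS, the alanine enzyme (FBgn0027094, 2L, 8378262 to 8381764, minus strand), had the highest signal of any member peak, 395.2 (rank 51), with 229.2 in replicate 1 (rank 58) and 168.4 in replicate 3 (rank 42). Its summit at 8376880 was 1382 bp past the 3′ end of AlaRS and 83 bp from the TSS of CG13390, in the 237 bp between the exons of CG13390 and CG17294. GlyRS, the glycine enzyme (FBgn0027088, 3L, 15095142 to 15097686, plus strand), had a summit 1200 bp past its 3′ end, at 15098886 in an intron of lncRNA:CR43973. It had a pooled signal of 80.3 (rank 2040), 59.8 in replicate 1 (rank 1464) and 22.2 in replicate 3 (rank 4900), and the nearest TSS, that of the CTP synthase gene Ctps, was 751 bp away.

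The 3 mitochondrial genes with a peak past IDR all had it away from their own start. CysRS-m, for cysteine (FBgn0033900, 2R, 14159096 to 14161262, minus strand), had a summit at 14157589 with a signal of 300.3 (rank 110), 181.4 in replicate 1 (rank 104) and 122.4 in replicate 3 (rank 102). It was 1507 bp past the 3′ end of the gene and 101 bp from the TSS of CG13018. LeuRS-m, for leucine (FBgn0027085, 3L, 4825853 to 4829038, plus strand), had a summit at 4824926 with a signal of 207.7 (rank 280), 121.5 in replicate 1 (rank 314) and 83.9 in replicate 3 (rank 273). That summit was 927 bp upstream of LeuRS-m, in an intron of the dynein heavy chain gene Dhc64C and 761 bp from its TSS. AsnRS-m (FBgn0034177, 2R, 17001994 to 17003599, plus strand) had a summit at 17005330 with a signal of 116.0 (rank 1028), 71.6 in replicate 1 (rank 1024) and 43.5 in replicate 3 (rank 1158). It was 1731 bp past the gene's end and 121 bp from the TSS of CG6805. All 3 ranked much alike in both replicates, and each was nearer to another gene's TSS.

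Of the 13 member peaks past IDR, 10 were nearest to the TSS of a gene other than the member. With each peak given to the gene of its nearest TSS, 3 of 18 cytosolic genes (16.7%) and 0 of 15 mitochondrial genes held one, against 13.0% of all genes. By that assignment the cytosolic share was close to that of all genes.

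Synthetase genes often start back to back with a neighbour. A TSS of another protein-coding gene on the opposite strand was within 500 bp of an own TSS in 14 of 18 cytosolic genes (77.8%) and 7 of 15 mitochondrial genes (46.7%), against 27.8% of all genes. All 21 such pairs of genes were head to head. Among genes with such a TSS, an own-TSS peak past IDR was present in 6 of 14 cytosolic members (42.9%) and 0 of 7 mitochondrial members, against 24.9% of all genes of this layout. Among genes without one it was present in 1 of 4 cytosolic members (25%) and 0 of 8 mitochondrial members, against 6.79% of all genes. Each of the 8 own-TSS peaks had protein-coding TSSs of both strands within 500 bp of its summit, as did 41.2% of the 1214 promoter peaks past IDR. The 8 were reached through genes, which favours peaks near several TSSs, and include both GluProRS summits of the same gap. The 1214 were counted by peak, so these shares are not directly comparable. Counted by gene, 6 of the 7 members with an own-TSS peak past IDR had an opposite-strand TSS within 500 bp. Among all protein-coding genes it was 964 of 1648. The layout moves with the compartments, and its part in their difference was not tested beyond these shares.

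The pooled list, which also holds weaker peaks and background, had a peak in or within 2000 bp of 16 of 18 cytosolic genes (88.9%) and 12 of 15 mitochondrial genes (80%), against 73.3% of all genes. At the own TSS the counts were 13 of 18 (72.2%) and 7 of 15 (46.7%), against 41.0% of all genes. The strongest own-TSS signal per gene had a median of 80.3 over the 13 cytosolic genes with a range of 34.1 to 203.7. It had a median of 50.6 over the 7 mitochondrial genes with a range of 37.4 to 64.5, and of 48.1 over the 5718 genes of any kind with such a peak. The mitochondrial values lay within the cytosolic range and near the median of all genes.

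The weaker own-TSS peaks of cytosolic genes without one past IDR were led by AlaRS and ArgRS. AlaRS had a summit 3 bp upstream of its own TSS with a signal of 67.3 (rank 2749, −log10 q 2.31), and the replicates differed, with rank 2222 in replicate 1 and 23821 in replicate 3. ArgRS, for arginine, had one 233 bp upstream with a signal of 65.5 (rank 2904), with rank 2468 in replicate 1 and 13596 in replicate 3. The ArgRS summit was nearer to a neighbour, 98 bp from the TSS of CG8578. AlaRS and ArgRS were followed by GlyRS (signal 42.3, rank 6635, 165 bp upstream), CysRS (38.7, rank 8130, 63 bp), MetRS (35.1, rank 10327, 46 bp) and HisRS (34.1, rank 11101, 54 bp), the enzymes for glycine, cysteine, methionine and histidine. These 4 signals were below 48.1, the median over all genes with an own-TSS pooled peak.

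Among mitochondrial genes, ArgRS-m had the highest own-TSS signal, 64.5 (rank 2988), 130 bp upstream, with rank 1982 in replicate 1 and 7805 in replicate 3. AspRS-m followed with 62.0 (rank 3183), 46 bp upstream, and here replicate 3 had the higher rank (1945) and replicate 1 the lower (6359). The others were CysRS-m (signal 55.3, rank 3833, 157 bp), LeuRS-m (50.6, rank 4550, 95 bp), ProRS-m (50.5, rank 4579, 220 bp) and PheRS-m (41.8, rank 6792, 124 bp), all upstream. IleRS-m (37.4, rank 8818) had its summit 80 bp downstream, in its coding exon. The summits of 3 were nearer to a neighbour: that of CysRS-m was 11 bp from the TSS of O-fut1, that of ProRS-m 18 bp from Snup and that of LeuRS-m 71 bp from Dhc64C.

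**Figure D3:**
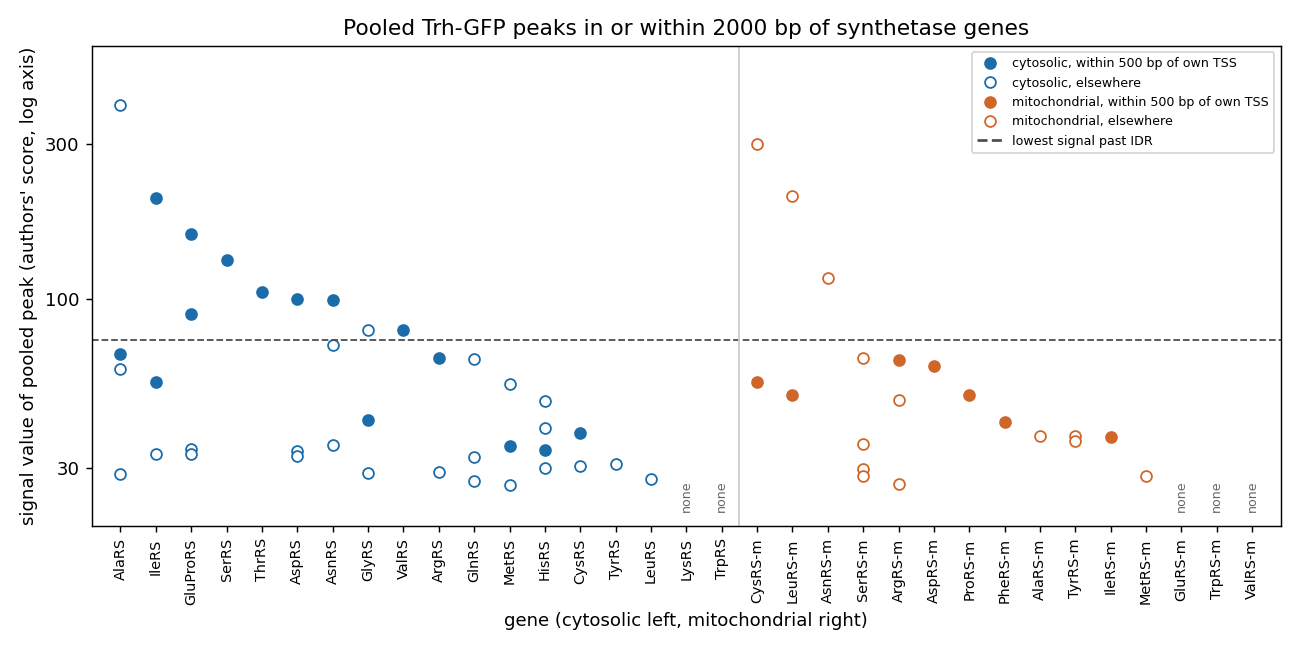
Signal value (the authors' score, log axis) of every pooled peak in or within 2000 bp of each gene, cytosolic genes left and mitochondrial genes right, each ordered by the strongest peak. Filled circles are within 500 bp of an own TSS, open circles are elsewhere, the dashed line is the lowest signal past IDR (74.4), and "none" marks a gene with no pooled peak. Filled circles stand above the line for 7 cytosolic genes and for no mitochondrial gene.

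No pooled peak was within 500 bp of an own TSS in the other 5 cytosolic genes (GlnRS, LeuRS, LysRS, TrpRS and TyrRS) and 8 mitochondrial genes (AlaRS-m, AsnRS-m, GluRS-m, MetRS-m, SerRS-m, TrpRS-m, TyrRS-m and ValRS-m). Of these, GlnRS had a pooled peak of signal 65.0 (rank 2940) past its 3′ end, 95 bp from the TSS of Kdsr, and SerRS-m one of 65.4 (rank 2906), 132 bp from the TSS of Nagk. TyrRS (31.0, rank 14329), LeuRS (27.9, rank 18735), AlaRS-m (37.7, rank 8620), TyrRS-m (37.6, rank 8663) and MetRS-m (28.5, rank 17805) had peaks of low rank elsewhere in their windows. LysRS and TrpRS among the cytosolic genes and GluRS-m, TrpRS-m and ValRS-m among the mitochondrial ones had no pooled peak within 2000 bp. In the single lists these 5 had at best rank 7212, that of ValRS-m in replicate 3. All 33 members are thus accounted for: 12 with a peak past IDR, 16 with weaker pooled peaks alone and 5 with none.

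The threshold runs through closely spaced signals. The members' weakest peaks inside it were those of ValRS and GlyRS, both with a signal of 80.3 (ranks 2042 and 2040). The strongest outside it were a second AsnRS peak 137 bp from the TSS of Polr1D (71.8, rank 2471) and the own-TSS peak of AlaRS (67.3, rank 2749).

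Most member peaks past IDR were also found in each replicate. Passing IDR already favours peaks that both replicates hold, so this presence is no separate support. Of the 13, 12 had a summit within 100 bp in replicate 1 and 12 in replicate 3, against 97.8% and 96.3% of all peaks past IDR. Within 250 bp, all 13 had a summit in each replicate. With so few peaks, small differences from the shares of all peaks cannot be read as a trait of the members. Among the 2322 peaks of highest signal in each replicate were 10 of the 13 in replicate 1 and 10 in replicate 3, against 85.6% and 79.7%, and 7 were among them in both, against 68.1%. By the peaks of a single replicate, the own-TSS peaks differed in part. The 2322 strongest of replicate 1 placed one at AlaRS, AsnRS, AspRS, GluProRS, IleRS, SerRS and the mitochondrial ArgRS-m, and those of replicate 3 at AspRS, GluProRS, IleRS, SerRS, ThrRS and the mitochondrial AspRS-m. AspRS, GluProRS, IleRS and SerRS stood in both sets, and ValRS, which has an own-TSS peak past IDR, in neither. Each of the 2 mitochondrial genes was in the set of a single replicate. By the gene span, 7 of 18 cytosolic genes and 5 of 15 mitochondrial genes had one of these peaks in each replicate, a smaller contrast than past IDR, and SerRS-m was among the 5 in both (ranks 2181 and 2316).

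**Figure D4:**
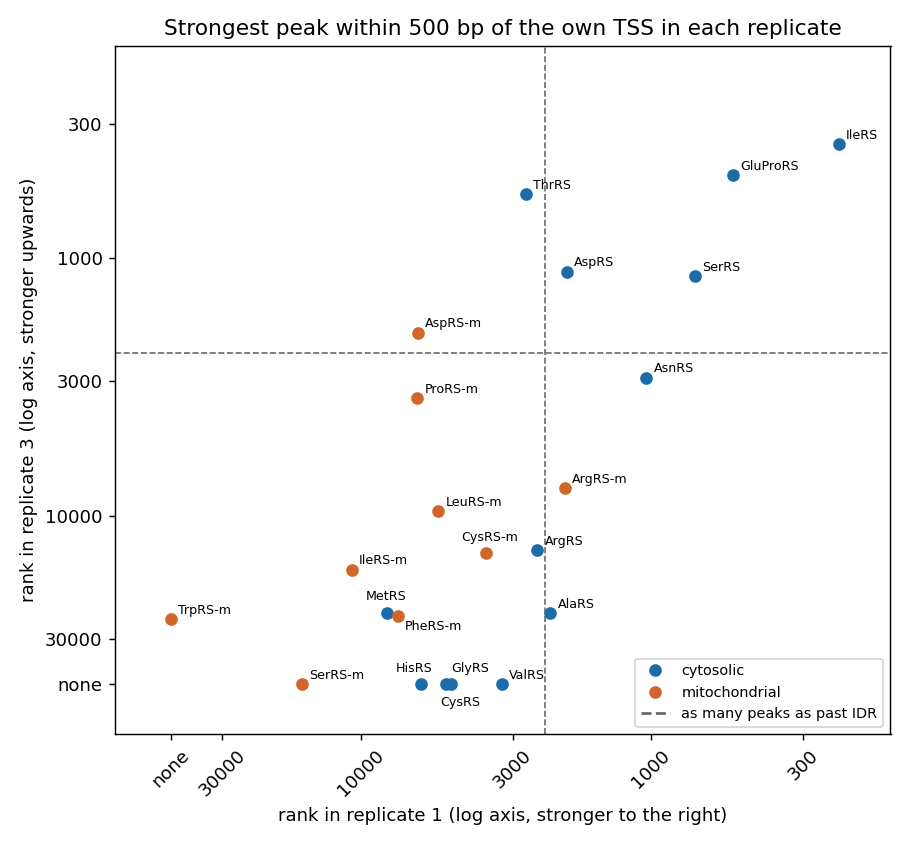
Rank of the strongest peak within 500 bp of each gene's own TSS in replicate 1 (horizontal) and replicate 3 (vertical), on log axes with stronger peaks to the right and upwards, for cytosolic (blue) and mitochondrial (orange) genes. "None" marks a gene with no such peak in that replicate and the dashed lines stand at rank 2322. AspRS, GluProRS, IleRS and SerRS are past both lines, and no orange point is.

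The sequences searched, on both strands, were each found at no more than 1 of the 13 member summits. Such counts are too small to show whether a sequence was rarer or more frequent there than over all summits. ACGTG was within 50 bp of 1 of the 13 summits, the weaker one of GluProRS, against 6.68% of all summits past IDR, and its longer forms TACGTG and CACGTG, the E-box, were at none (1.89% and 0.947% of all summits). TGTTTAC, a forkhead-type site, was at 1 (CysRS-m, 7 bp from the summit), against 4.22%. GGTCACACT, the core of a promoter element named Motif 1, was at 1 (ValRS, 46 bp), against 0.474%. TATCGATA (the DRE, bound by DREF at many promoters of growth genes), TTGCATCA (a site type bound by ATF4) and GAGAG (of the kind bound by the factor Trl) were at none of the 13, against 1.94%, 0.172% and 9.35% of all summits.

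In the promoters themselves, from 250 bp upstream to 50 bp downstream of each gene's 5′ end, ACGTG was present in 9 of 18 cytosolic genes and 4 of 15 mitochondrial genes, against 23.3% of all promoters. The cytosolic genes were AlaRS, ArgRS, GlnRS, HisRS, IleRS, LeuRS, ThrRS, TyrRS and ValRS. Of these, IleRS, ThrRS and ValRS had an own-TSS peak past IDR. The other members with such a peak, AsnRS, AspRS, GluProRS and SerRS, had no ACGTG in this window. Within 100 bp of the summit, 1 of the 8 own-TSS peaks past IDR had it, the weaker one of GluProRS. TTGCATCA was in 0 of 18 cytosolic and 0 of 15 mitochondrial promoters (0.817% of all). GAGAG was in 4 of 18 and 2 of 15 (29.8% of all) and TGTTTAC in 0 of 18 and 1 of 15, that of GluRS-m (9.24% of all). GGTCACACT was in 1 of 18 (GlnRS) and 3 of 15 (AsnRS-m, AspRS-m and ProRS-m), against 6.05%. CACGTG was in 1 of 18 (GlnRS) and 1 of 15 (LeuRS-m), against 4.24%.

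Promoter sites of TATCGATA in cytosolic genes and of TACGTG in mitochondrial genes are shown to set them beside the peaks, a choice made after their counts had been seen. TATCGATA was in 4 of 18 cytosolic promoters and in 1 of 15 mitochondrial ones (PheRS-m), against 9.37% of all promoters, and TACGTG, which contains ACGTG, was in 0 of 18 and 3 of 15, against 5.65%. Each site is given in capitals with 10 bases on each side, in the direction of the gene. The TATCGATA sites are at AlaRS (chr2L:8381766-8381793, minus strand), ArgRS (chrX:15844162-15844189, minus strand), IleRS (chr3L:22288613-22288640, plus strand) and TrpRS (chr3R:9266959-9266986, minus strand), and the TACGTG sites at AlaRS-m (chr3L:5145993-5146018, plus strand), LeuRS-m (chr3L:4825644-4825669, plus strand) and MetRS-m (chr3R:14260022-14260047, minus strand).
AlaRS: tctctaaatcTATCGATAtctcatccag
ArgRS: ctgttatcgtTATCGATAggcgacgtgt
IleRS: cggaacctacTATCGATAtcgcgaaccc
TrpRS: tatttctcatTATCGATAtttttaacag
AlaRS-m: ggcccaaatgTACGTGttgcgcctgt
LeuRS-m: tgtgaaaaatTACGTGagtttttttt
MetRS-m: atgagactgtTACGTGcactgttagc

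The TATCGATA sites lay 12 bp (AlaRS), 27 bp (ArgRS), 35 bp (IleRS) and 65 bp (TrpRS) from the TSS. AlaRS and ArgRS had own-TSS peaks below the threshold, IleRS had one past it, and TrpRS had no pooled peak. The IleRS site was next to the weaker of its summits, at 22288611, and away from the one past IDR. The TACGTG sites lay 90 bp (AlaRS-m), 194 bp (LeuRS-m) and 41 bp (MetRS-m) from the TSS. AlaRS-m and MetRS-m had no pooled peak within 500 bp of it, and the own-TSS peak of LeuRS-m was below the threshold.

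Of 16 other genes of transfer RNA charging, 2 had a peak past IDR in the span or within 2000 bp (12.5%, against 22.4% of all genes). At an own TSS 0 had a peak past IDR (11.8% of all genes), while 10 had a pooled one (62.5%, against 41.0% of all genes). Of the subunits of the cytosolic phenylalanine enzyme, alpha-PheRS had a peak past IDR 84 bp from the TSS of CG17982 (signal 101.2, rank 1366) and 1851 bp from its own TSS. The subunit beta-PheRS had a weaker peak 81 bp upstream of its TSS (46.1, rank 5479). The other gene was eEF1alpha1, the elongation factor that brings charged transfer RNAs to the ribosome, whose peak (191.4, rank 349) was 1189 bp upstream and nearest to ERp60.

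The weaker peaks of these genes included those of GatA (signal 70.6, rank 2530, 93 bp upstream) and GatC (65.5, rank 2903, 175 bp), subunits of the mitochondrial amidotransferase that makes glutaminyl-tRNA, for which GatB had no pooled peak. Both summits were nearer to another gene, 19 bp from the TSS of P5cr (GatA) and 57 bp from that of Polr2C (GatC). The mitochondrial elongation factor genes mEFTu1 (55.0, rank 3876, 228 bp upstream) and mEFTu2 (51.1, rank 4474, 115 bp downstream) had lower signals, at summits nearest to their own TSS. Of the regulators, Gcn2, the kinase that senses uncharged transfer RNA, had a peak of 51.7 (rank 4380, 277 bp upstream), which was 79 bp from the TSS of Ugt35D1. The fly ATF4 gene, crc, had one of 37.4 (rank 8828, 167 bp downstream). The scaffold gene AIMP1 and Slimp, a relative of SerRS-m, had no pooled peak. The scaffold genes AIMP2 (41.8, rank 6809) and AIMP3 (26.9, rank 20411), the deacylase gene Dtd (37.2, rank 8932) and eEF1alpha2 (50.9, rank 4508) had their strongest pooled peak over 1000 bp from their own TSS.

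The most alike families, ribosomal protein genes of the same compartments, held peaks past IDR more often than the synthetases. In the span or within 2000 bp the counts were 9 of 18 cytosolic synthetase genes (50%) and 64 of 86 cytosolic ribosomal protein genes (74.4%), and at the own TSS 7 of 18 (38.9%) and 55 of 86 (64.0%). Mitochondrial genes were lower in both families, with 3 of 15 synthetase genes (20%) and 26 of 73 ribosomal protein genes (35.6%) in the span, and 0 of 15 and 16 of 73 (21.9%) at the own TSS. These differences between families were not tested. An opposite-strand TSS within 500 bp was present for 77.8% of cytosolic synthetase genes and 39.5% of cytosolic ribosomal protein genes, and for 46.7% of mitochondrial synthetase genes and 72.6% of mitochondrial ribosomal protein genes.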

How the data were processed

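Peak lists of 2 replicates were used, in narrowPeak layout and dm6 coordinates, per the deposited file lists: a relaxed list per replicate against a shared control alignment, one on the pooled replicates, and the peaks past IDR derived from them. Which aligner, caller, versions and IDR threshold were used is not given in the sources used here. With every peak comes a score (its signal value) and a −log10 q value (2.80 to 3.48 past IDR), both as deposited by the authors. No counts were used, so depth and precision are unknown. The lists in dm3 were not used.

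Summits (1-based) were set against the Ensembl BDGP6.54 annotation, after arm lengths of the genome had been checked against the lists. Peaks were given to each gene whose span, widened by 2000 bp, held the summit. A summit was at the own TSS within 500 bp of any transcript's start, and in a replicate when within 100 bp. A head-to-head neighbour is a protein-coding TSS on the opposite strand within 500 bp. Sequences of 8 kinds were searched in 101 bp windows and in promoters.

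Members and lists were chosen with earlier results of these data known. Every member is named, with the nearest gene of each peak past IDR. All 16 written genes of transfer RNA charging matched the annotation. With 1 group, counts and shares are descriptions with no test. The alternatives were other distances, gene assignments, thresholds, windows and single replicates. On simulated data, only the rule of 2000 bp around the span was tested, with summits placed at known distances from genes. The own-TSS, nearest-TSS, neighbour, replicate and sequence counts were not tested in this way. Computations used Python 3.11.15, numpy 2.4.6, pandas 2.3.3 and matplotlib 3.10.9.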

Additional observations from a re-analysis of the deposited data

How the results depend on the processing

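Over 16 results and 52 comparisons with alternative settings, 37 values stayed within 1.5 times the main count and 15 moved. The cytosolic share with a peak was above the mitochondrial one under all 11 alternatives to the span rule and all 6 for the own TSS. The 11 included the 500 bp rule for the own TSS and the nearest TSS. With peaks above the median signal the counts were as close as 4 of 18 and 3 of 15. All the alternatives cut the same peaks and genes anew, so they are not independent checks. For the pooled list the cytosolic share was above under 2 of 3, and with 5000 bp around the span 17 of 18 cytosolic and 15 of 15 mitochondrial genes had a pooled peak (94.4% and 100%, against 86.5% of all genes). The cytosolic count of 9 in the span was 3 by nearest TSS (all genes 13.0%) and 4 with the peaks above the median signal alone (12.9%), where the mitochondrial count was 3. The mitochondrial count of 3 was 0 within 500 bp of the span (all genes 16.4%), 1 within 1000 bp (18.2%), 5 within 5000 bp (33.3% of members, 32.7% of all genes), 0 within 500 bp of a TSS (11.8%), 0 by nearest TSS (13.0%) and 7 with the 5000 strongest pooled peaks (46.7% of members, 36.5% of all genes). Without each replicate the span counts were 7 to 7 (cytosolic) and 5 to 5 (mitochondrial), against 21.5% to 22.7% of all genes. At the own TSS the cytosolic count of 7 was 3 within 100 bp (all genes 3.43%) and 5 to 6 without each replicate, and the mitochondrial count of 0 was 1 within 1000 bp (13.6%) and 1 to 1 without each replicate (11.0% to 12.1%). Shorter distances and fewer peaks lower such counts by construction. GAGAG was at 0 member summits within 50 bp and at 1 within 100 bp. With alpha-PheRS, beta-PheRS and Slimp added, 10 of 20 cytosolic and 3 of 16 mitochondrial genes had a peak (50% and 18.8%). No paired analysis was possible because there was 1 group. Unknown depth limits what the absence of a peak can say.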

Other observations

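The groupings here were made after the values had been seen and carry no test. Among the 12 amino acids with both a cytosolic and a mitochondrial gene, both genes had an own-TSS pooled peak for 4, and the signal was higher for the cytosolic gene of 3 (Arg, Asp and Ile) and for the mitochondrial gene of 1 (Cys). The values were 65.5 for ArgRS and 64.5 for ArgRS-m, 99.6 for AspRS and 62.0 for AspRS-m, 203.7 for IleRS and 37.4 for IleRS-m, and 38.7 for CysRS and 55.3 for CysRS-m. For Ala, Asn, Met, Ser and Val the cytosolic gene alone had such a peak, for Leu the mitochondrial gene alone, and for Trp and Tyr neither. Over these 12 amino acids, 6 of 12 cytosolic and 3 of 12 mitochondrial genes had a peak past IDR in the span or within 2000 bp. The share of all genes was 22.4%. At the own TSS the counts past IDR were 5 of 12 and 0 of 12, against 11.8% of all genes. By the structural classes of the enzymes, whose active sites have unrelated folds, an own-TSS peak past IDR was present for 4 of 8 class II and 2 of 9 class I cytosolic genes, GluProRS left aside since it joins both, and for 0 of 6 class II and 0 of 9 class I mitochondrial genes, against 11.8% of all protein-coding genes. Of the enzymes that form the multi-synthetase complex of mammals, 3 of 8 fly genes had one, against 4 of the other 10 cytosolic genes.

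Peaks were also counted near the genes of transfer RNAs themselves, the substrates of these enzymes. Of 290 annotated tRNA genes, 32 (11.0%) had a summit past IDR within 2000 bp and 9 (3.10%) within 500 bp. The shares over all protein-coding genes, with a median span of 2166 bp, were 22.4% and 16.4%. No share for genes of like length was computed, so it cannot be said whether tRNA genes lay near peaks more or less often than others.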
